A study of Mus musculus with 18 samples.

Results

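Bone marrow of 6 mice labelled CCAT2-GT was compared with that of 4 mice labelled CCAT2-G across all annotated genes. The 10 arrays were chosen by their titles from the 18 of the series, and 14505 of the 18194 genes with a probeset of their own were bright enough to be tested. No gene passed the test after adjustment. Sex-linked genes apart, the gene lists whose medians lay farthest below 0 were those of mature B cells, of pro-B and pre-B cells and of MHC class II presentation. Those farthest above 0 were the primary granules of neutrophils, monocytes and a list of 5 histone genes.

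All 10 mice were C57Bl6 animals engineered so that the long non-coding RNA CCAT2 was overexpressed throughout the body. The 4 CCAT2-G mice overexpress its G form and are labelled DRAI-, and the 6 CCAT2-GT mice are labelled DRAI+, a status that the labels do not spell out, as they do not say what GT stands for. The remaining 8 arrays are 4 CCAT2-T mice, overexpressing the T form and also labelled DRAI-, and 4 wild-type (WT) mice without the transgene. Marrow cells were flash frozen, and total RNA was hybridised to Affymetrix arrays, 1 array per mouse, each titled a biological replicate. The age and sex of the mice, the promoter of the transgene and the number of founder lines are absent from the labels. CCAT2 itself was not analysed here. Levels are log2 expression values, so a difference of 1 is a doubling of the normalized signal, and every difference is CCAT2-GT minus CCAT2-G.

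Bone marrow gives rise to all blood cells. In its lymphoid branch, pro-B and pre-B cells cut and rejoin their immunoglobulin genes with the RAG recombinase and the end-joining repair enzymes, test the product with a surrogate light chain, and then become B cells that carry the B-cell receptor and present antigen on MHC class II molecules. In its myeloid branch, granulocyte and monocyte precursors fill their primary granules with myeloperoxidase and proteases before they mature into neutrophils or monocytes.

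Promoters of B-lineage and primary granule genes are shown because nearly all members of these lists had means on the same side of 0. From RefSeq's promoter windows on GRCm38.p6, the 250 bases before the start site of each gene were searched on both strands for 5 motifs: the E-box CAGGTG bound by E2A (the product of Tcf3), the EBF1 motif (TCCC and GGGA with any 2 bases between), the octamer ATGCAAAT, the ETS core GAGGAAGT bound by PU.1, and the interferon-stimulated response element (GAAA and GAAA with any 2 bases between). Of the 11617 tested genes with a window, 19.5% held the E-box (17.2% of all 32851 windows), against 11 of 20 mature B-cell genes (55.0%), 6 of 16 pro-B and pre-B genes (37.5%), 13 of 44 interferon response genes (29.5%), 2 of 9 primary granule genes, 1 of 6 MHC class II genes and 1 of 23 monocyte genes. The ETS core was present in 2.93% of tested genes (2.44% of all windows) in 3 of 9 primary granule genes, namely Mpo, Prtn3 and Elane, in 3 of 20 mature B-cell genes, in 2 of 44 interferon response genes and in none of the other 3 lists. The interferon element was present in 3.22% of tested genes (2.98% of all windows) in 15 of 44 interferon response genes, in 4 of 23 monocyte genes, in 2 of 20 mature B-cell genes and in 1 of 9 primary granule genes. The octamer, in 1.54% of tested genes and 1.60% of all windows, and the EBF1 motif, in 1.19% and 0.779%, each matched 1 mature B-cell gene and 1 pro-B or pre-B gene, and the octamer also 1 monocyte and 1 primary granule gene. So no motif was found in 1 list alone. None of the 5 motifs contains another, and a match describes the letters only. Printed 5′ to 3′ on the strand of the gene, with the E-box (CAGGTG, or its reverse complement CACCTG) in capitals, are Cd79a at chr7:24897247-24897496 on the plus strand, Bank1 at chr3:136326067-136326316 on the minus strand and Vpreb1 at chr16:16869256-16869505 on the minus strand, and, with the ETS core in capitals, Mpo at chr11:87793534-87793783 and Prtn3 at chr10:79879417-79879666, both on the plus strand.
Cd79a: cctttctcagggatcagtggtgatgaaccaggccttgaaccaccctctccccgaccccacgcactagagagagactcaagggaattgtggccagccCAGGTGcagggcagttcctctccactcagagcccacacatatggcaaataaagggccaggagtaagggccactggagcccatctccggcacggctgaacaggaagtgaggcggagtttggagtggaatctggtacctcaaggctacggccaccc
Bank1: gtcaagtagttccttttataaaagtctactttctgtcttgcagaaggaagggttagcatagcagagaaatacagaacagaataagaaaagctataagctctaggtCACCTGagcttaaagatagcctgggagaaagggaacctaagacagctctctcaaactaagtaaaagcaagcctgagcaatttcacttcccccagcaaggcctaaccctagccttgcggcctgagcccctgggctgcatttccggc
Vpreb1: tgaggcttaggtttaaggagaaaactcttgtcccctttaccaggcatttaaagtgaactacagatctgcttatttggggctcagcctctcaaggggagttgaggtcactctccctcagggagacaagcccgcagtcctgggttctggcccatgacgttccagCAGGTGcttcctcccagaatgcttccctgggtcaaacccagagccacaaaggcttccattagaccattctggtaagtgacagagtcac
Mpo: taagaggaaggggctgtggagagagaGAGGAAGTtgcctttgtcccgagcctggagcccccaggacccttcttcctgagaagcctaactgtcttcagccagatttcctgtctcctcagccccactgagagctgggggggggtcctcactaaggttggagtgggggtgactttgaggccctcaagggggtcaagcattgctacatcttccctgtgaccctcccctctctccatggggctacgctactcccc
Prtn3: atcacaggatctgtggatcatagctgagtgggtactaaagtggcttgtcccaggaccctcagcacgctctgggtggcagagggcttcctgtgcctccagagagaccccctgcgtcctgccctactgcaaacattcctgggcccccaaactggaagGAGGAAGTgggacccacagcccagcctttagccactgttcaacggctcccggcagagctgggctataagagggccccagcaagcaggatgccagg

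The arrays were those of marrow: S100a8, an abundant neutrophil protein, lay between 13.64 and 13.85 in all 10 mice, and Klf1, the erythroid transcription factor, between 9.43 and 10.78. Several properties of the arrays moved with the groups or with 1 mouse. Xist, the RNA of the silenced X chromosome, stood at 10.71, 11.16 and 10.78 in mice 2, 3 and 5 of the CCAT2-GT group, and no other mouse of either group exceeded 4.01. The Y-linked gene Eif2s3y was 2.32, 2.28 and 2.19 in those same 3 mice and at least 7.21 in the other 7. So all CCAT2-G mice had the male pattern, and 3 of 6 CCAT2-GT mice the female one. Of 4 tested sex-linked genes 3 had lower means in CCAT2-GT mice, with a median difference of -1.50. The interquartile range of the array was 2.97 in CCAT2-G replicate 1 and 3.15 to 3.32 in the other 9. Marrow stroma, endothelial and bone genes had their highest mean levels in CCAT2-GT replicates 4 and 6, at 6.72 and 7.39, with 4.54 to 6.24 in the other 8 mice. Identifiers of CCAT2-GT replicates 1 to 3 carry the letter G and those of replicates 4 to 6 the letter T, which the labels do not explain. CCAT2-G replicate 3 stood apart from its group, with its B-lineage lists lowest and its mature neutrophil list highest, and the lists described at length are given with and without it.

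Over all genes the median difference was -0.01, with quartiles of -0.12 and 0.11, and 47.6% of genes had higher and 52.4% lower means. limma called 0 genes at an adjusted p under 0.05, and the smallest adjusted p was 0.904. Before adjustment 770 genes had p under 0.05, of which 283 were higher (1.95% of those tested) and 487 lower (3.36%), while a threshold of 0.05 passes about 725 genes when nothing differs. The levels of the groups did not overlap for 21 genes higher (0.145%) and 80 genes lower (0.552%) in CCAT2-GT mice. Without CCAT2-G replicate 3, limma called 2 genes higher and 0 lower, and 3.96% and 5.23% of genes then did not overlap. For the genes named below limma's adjusted p lay between 0.904 and 1, so none is called. Each difference is given with its standard error (SE), and counts of list members at p under 0.05 are before adjustment.

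B lymphocyte genes were lower in CCAT2-GT marrow as a group. All 25 tested genes of the mature B-cell list had lower means, where 52.4% of all genes were lower, with a median difference of -1.19 and a range of -2.15 to -0.11, against -0.01 over all genes. Of the 25, 18 had p under 0.05, where 3.36% of all genes were lower with such a p. The mean level of the list was 8.64, 8.18, 6.35 and 8.37 in CCAT2-G replicates 1 to 4, and from 5.91 to 7.53 around a median of 6.69 in the 6 CCAT2-GT mice. Thus 3 CCAT2-G mice lay above every CCAT2-GT mouse, and CCAT2-G replicate 3 lay among the lower CCAT2-GT mice. In bulk marrow, fewer B cells and less RNA per B cell cannot be told apart.

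Cd79a encodes 1 of the chains that carry signals from the B-cell receptor. Its level was 9.08, 8.55, 5.07 and 9.01 in CCAT2-G replicates 1 to 4, against 4.83 to 6.99 (median 5.64) in CCAT2-GT mice, a difference of -2.16 (SE 0.80). Only CCAT2-G replicate 3 overlapped the CCAT2-GT range. Cd79b, the partner chain, was 9.84, 9.42, 7.16 and 9.67 in CCAT2-G replicates 1 to 4, and from 6.57 to 8.66 around a median of 7.70 in the 6 CCAT2-GT mice, a difference of -1.34 (SE 0.53). Ms4a1, which encodes CD20 on the surface of B cells, was 10.22, 9.64, 7.33 and 9.94 in CCAT2-G replicates 1 to 4, and from 5.60 to 8.55 around a median of 7.46 in the 6 CCAT2-GT mice, and differed by -1.99 (SE 0.68). Again the 3 other CCAT2-G mice were above all CCAT2-GT mice, while replicate 3 sat near the CCAT2-GT median.

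Pax5, the transcription factor that commits cells to the B lineage, was the only member of the 25 whose groups did not overlap. Over all genes 0.552% were lower without overlap. Its level was 5.52, 5.67, 5.06 and 5.37 in CCAT2-G replicates 1 to 4 and 4.30 to 5.05 with a median of 4.86 in the CCAT2-GT mice, a difference of -0.65 (SE 0.20), and both of its probesets were lower. CCAT2-G replicate 3 was the lowest of its group and still just above CCAT2-GT replicate 5. Ebf1, a factor that acts with Pax5, was 7.99, 7.56, 4.19 and 7.82 in CCAT2-G replicates 1 to 4 and 3.44 to 6.69 with a median of 5.57 in the CCAT2-GT mice, and differed by -1.40 (SE 0.69), with replicate 3 of CCAT2-G inside the CCAT2-GT range. Bank1, a scaffold of B-cell receptor signalling, was 8.99, 8.36, 7.40 and 8.60 in CCAT2-G replicates 1 to 4, against 6.02 to 8.04 (median 7.23) in CCAT2-GT mice, a difference of -1.19 (SE 0.43). Only CCAT2-G replicate 3 overlapped the CCAT2-GT mice for Bank1. Fcmr, the receptor for secreted IgM, differed by -1.75 (SE 0.69), and Ltb, a lymphotoxin subunit that B cells make, by -0.92 (SE 0.33). Cd79b, Ebf1 and Fcmr were named after their values were seen.

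**Figure D1:**
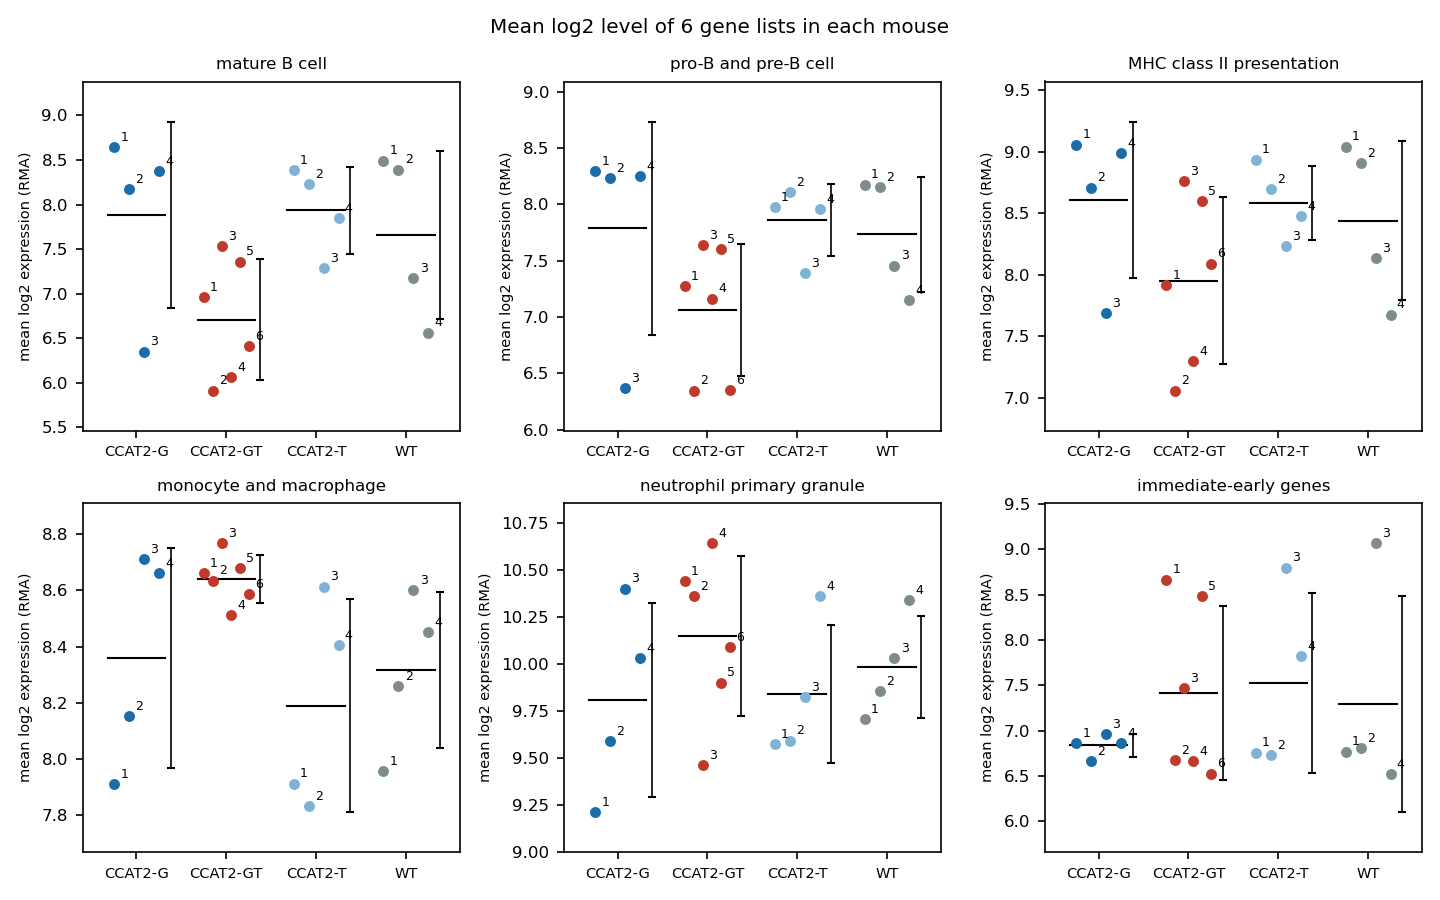
Mean log2 level of 6 gene lists in each mouse, by group. Points are mice with their replicate numbers, horizontal lines are group means and bars are SD between mice. In the mature B-cell panel 3 CCAT2-G mice lie above all 6 CCAT2-GT mice and replicate 3, at 6.35, lies among them.

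The size of the B-cell difference changed with the mice included, while its direction was kept. All 25 genes stayed lower in each of the 33 alternatives run, with medians from -1.78 to -0.93. Settings that alter only the filter or the test leave each gene's difference unchanged, so they could not turn its direction. All alternatives reuse these arrays. With 3 CCAT2-G mice above every CCAT2-GT mouse, leaving out 1 mouse also had little room to turn the direction of the list. CCAT2-G replicate 3, at 6.35, lay below the CCAT2-GT median of 6.69 and so went against that direction. The identifier letter gave the same median, -1.09, as a covariate and as an exclusion. Without CCAT2-G replicate 3 the median was -1.78, 24 of the 25 had p under 0.05 (7.41% of all genes lower at that p), and 22 of the 25 did not overlap between groups, where 5.23% of all genes did so. Without CCAT2-G replicate 1 the median was -0.96 and 3 had such a p (2.77% of all genes), without replicate 2 it was -1.17 with 11 (1.94%), and without replicate 4 it was -1.09 with 5 (1.73%). Without CCAT2-GT replicate 2 the median was -1.02 with 11 (2.88%). With the CCAT2-GT mice restricted to those whose identifier has the letter G, 6 had such a p (1.5% of all genes), and without the 3 stroma-rich arrays of the series 10 did (2.56%). Without the 4 arrays of the series with high Xist the median was -1.45 with 19 of 25 (3.7%). The direction was thus the same with only CCAT2-GT replicates 1, 4 and 6, of the male pattern, in that group. Replicates 4 and 6 are stroma-rich, so this exclusion does not separate sex from stroma content. Without the 5 narrow arrays of the series, of which CCAT2-G replicate 1 is 1, the median was -0.96 with 6 of 25 (3.21%).

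WT levels overlapped both groups. Their mature B-cell mean levels were 8.49, 8.39, 7.18 and 6.56 in replicates 1 to 4, so WT replicates 3 and 4 lay among the CCAT2-GT mice. The CCAT2-T mice were at 8.38, 8.23, 7.28 and 7.84, and only replicate 3 lay below any CCAT2-GT mouse. The median difference of the list was -1.25 for CCAT2-GT minus CCAT2-T and -0.95 for CCAT2-GT minus WT. These comparisons share the 6 CCAT2-GT arrays with the one described here.

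Precursor genes of the B lineage were also lower. Of 20 tested genes of the pro-B and pre-B list, 19 had lower means and 4 of them had p under 0.05 (3.36% of all genes), with a median difference of -0.73. The mean level of the list was 8.30, 8.23, 6.37 and 8.25 in CCAT2-G replicates 1 to 4 and 6.35 to 7.64 with a median of 7.22 in the CCAT2-GT mice. CCAT2-GT replicates 2 and 6 and CCAT2-G replicate 3 formed the low end. Without CCAT2-G replicate 3 the median was -1.19, 14 of 20 had p under 0.05 (7.41% of all genes) and 14 of 20 did not overlap (5.23%), and without CCAT2-G replicate 1 or replicate 4 none had such a p.

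Foxo1, a transcription factor that switches on the RAG genes, was 8.16, 7.77, 6.27 and 8.18 in CCAT2-G replicates 1 to 4, and from 6.07 to 7.32 around a median of 6.61 in the 6 CCAT2-GT mice, a difference of -0.92 (SE 0.35). Rag2, a subunit of the recombinase, was 5.86, 5.60, 3.48 and 5.72 in CCAT2-G replicates 1 to 4 and 3.45 to 4.64 with a median of 4.16 in the CCAT2-GT mice, a difference of -1.08 (SE 0.44). Dntt, the enzyme that adds untemplated bases at the junctions, was 8.55, 8.85, 5.88 and 8.65 in CCAT2-G replicates 1 to 4, against 5.25 to 7.51 (median 7.01) in CCAT2-GT mice, a difference of -1.34 (SE 0.56). In all 3 genes CCAT2-G replicates 1, 2 and 4 lay above every CCAT2-GT mouse and CCAT2-G replicate 3 lay inside the CCAT2-GT range.

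Tcf3, which encodes E2A, differed by -0.34 (SE 0.16). For Rag1, the catalytic subunit, the level was 8.87, 8.25, 2.57 and 8.81 in CCAT2-G replicates 1 to 4, against 2.62 to 7.22 (median 5.80) in CCAT2-GT mice, and the difference of -1.81 (SE 1.10) did not reach p under 0.05. Vpreb1 and Igll1 encode the surrogate light chain. Vpreb1 was 8.57, 9.17, 4.22 and 8.66 in CCAT2-G replicates 1 to 4, and from 3.99 to 7.92 around a median of 7.10 in the 6 CCAT2-GT mice, a difference of -1.36 (SE 0.91), and Igll1 differed by -1.43 (SE 0.77). For Vpreb1, CCAT2-GT replicates 2 and 6 lay just below CCAT2-G replicate 3, and the other 7 mice lay well above those 3. Of the 2 probesets of Igll1, 1 was lower and the other higher. Rag1 and Igll1 were named after their values were seen.

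**Figure D2:**
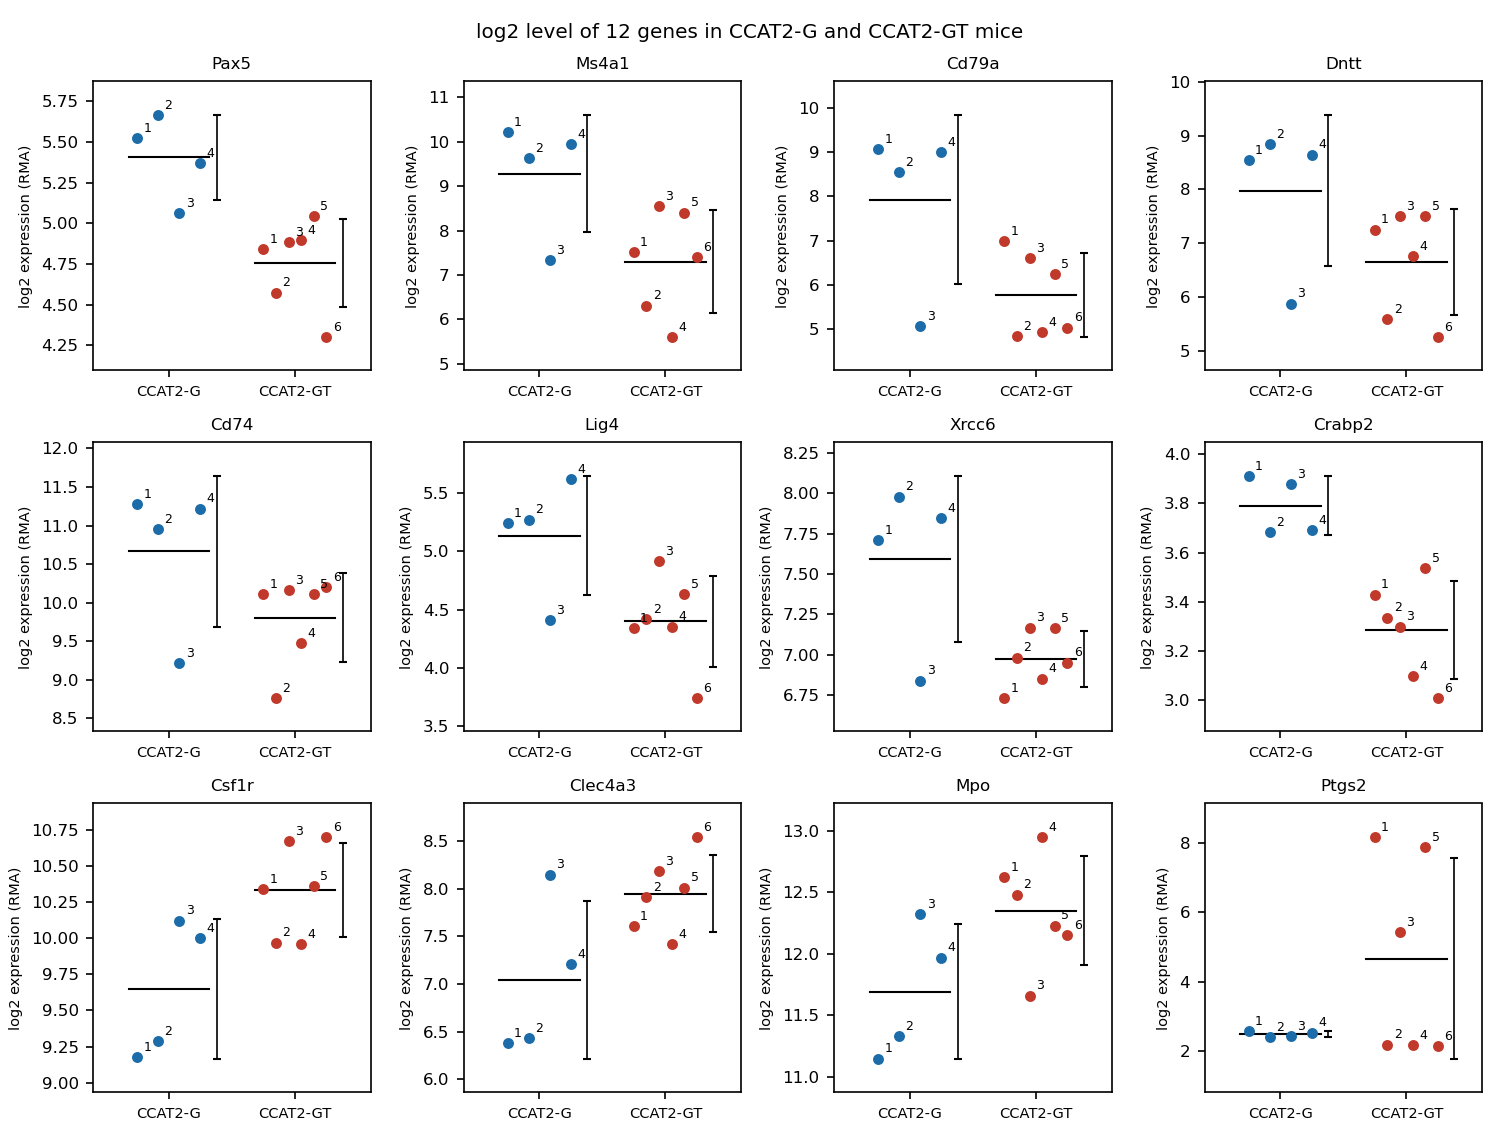
log2 level of 12 genes in the 4 CCAT2-G and 6 CCAT2-GT mice. Points are mice with replicate numbers, horizontal lines are group means and bars are SD. Pax5 and Crabp2 do not overlap between groups, and CCAT2-G replicate 3 is the lowest CCAT2-G mouse for Ms4a1, Cd79a, Dntt, Cd74, Lig4 and Xrcc6.

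Genes of antigen presentation on MHC class II, which B cells share with dendritic cells and macrophages, were also lower. All 9 tested genes had lower means, with a median of -0.70, and 2 of the 9 had p under 0.05 (3.36% of all genes). The mean level of the list was 9.06, 8.71, 7.69 and 8.99 in CCAT2-G replicates 1 to 4, against 7.06 to 8.76 (median 8.00) in CCAT2-GT mice. H2-Ob, a chain of H2-O, which tunes peptide loading in B cells, was 8.35, 7.81, 6.31 and 7.93 in CCAT2-G replicates 1 to 4 and 4.33 to 7.56 with a median of 6.27 in the CCAT2-GT mice, a difference of -1.45 (SE 0.61). Ciita, the master regulator of class II genes, was 5.49, 5.12, 4.11 and 5.19 in CCAT2-G replicates 1 to 4, against 3.75 to 4.77 (median 4.24) in CCAT2-GT mice, a difference of -0.71 (SE 0.30). Both had CCAT2-G replicate 3 inside the CCAT2-GT range and the other 3 CCAT2-G mice above it. Cd74, the invariant chain, differed by -0.86 (SE 0.42), and H2-DMb2, a peptide exchange chain, by -0.89 (SE 0.46). Without CCAT2-G replicate 3 the median was -0.96 and 6 of 9 had p under 0.05 (7.41% of all genes), and without replicate 1, 2 or 4 none did.

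Of the dendritic-cell list 11 of 14 genes had lower means (52.4% of all genes), with a median of -0.32. Its smallest p belonged to Ly6d, a surface protein that also marks lymphoid progenitors bound for the B lineage, which differed by -1.25 (SE 0.47). Klk1 differed by -0.98 (SE 0.57) and Bst2 by -0.35 (SE 0.26), and Batf3, a transcription factor of conventional dendritic cells, by 0.33 (SE 0.18). The median of the list was -0.48 without CCAT2-G replicate 3, and without replicate 4 it was -0.09. The T-cell and NK-cell list had 20 of 26 genes lower (52.4% of all genes), with a median of -0.16. It had 1 gene in each direction with p under 0.05 (3.36% of all genes lower and 1.95% higher). Its smallest p belonged to Nkg7, a membrane protein of cytotoxic granules, which was higher by 0.56 (SE 0.20). Cd8b1, a chain of the CD8 co-receptor, differed by -0.68 (SE 0.31), Il2rb, an interleukin receptor chain, by -0.50 (SE 0.27), and Cd3e, a chain of the T-cell receptor complex, by -0.30 (SE 0.21). The median was -0.26 without CCAT2-G replicate 3.

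Plasma cells, which secrete antibody, had genes with means mostly above those of CCAT2-G marrow. The plasma-cell list had 10 of 15 genes higher (47.6% of all genes), with a median of 0.13, or 0.16 without CCAT2-G replicate 3 and 0.02 without replicate 4. Its 2 genes higher at p under 0.05 (1.95% of all genes) were Edem1 and Xbp1. Both also belong to the unfolded protein list described below, so the 2 lists are not separate for them. Jchain, which joins secreted IgM and IgA, was 11.54, 11.75, 10.79 and 10.01 in CCAT2-G replicates 1 to 4, and from 9.98 to 11.92 around a median of 11.36 in the 6 CCAT2-GT mice, a difference of 0.05 (SE 0.41), which turned sign in 12 of 33 alternatives. Prdm1, the factor that drives secretion, differed by 0.34 (SE 0.17) and Irf4, which acts in both precursors and plasma cells, by -0.66 (SE 0.36). Ighg3, the constant region of an IgG heavy chain, was 1 of the 21 genes whose groups did not overlap with CCAT2-GT higher (0.145% of all genes). Its level was 7.07, 6.80, 5.29 and 6.66 in CCAT2-G replicates 1 to 4 and 7.10 to 10.19 with a median of 7.61 in the CCAT2-GT mice, a difference of 1.57 (SE 0.53), with all 4 probesets higher. CCAT2-GT replicate 2, at 10.19, was the highest, and CCAT2-T replicate 3, at 8.73, was above 5 of the 6 CCAT2-GT mice. Both had high Xist, as did CCAT2-GT replicates 3 and 5, at 7.55 and 8.50 for Ighg3. CCAT2-GT replicates 1, 4 and 6, of the male pattern like all CCAT2-G mice, were at 7.66, 7.17 and 7.10. The Ighg3 difference ran from 0.54 to 2.02 over the 33 alternatives. The constant regions of IgG subclasses are closely similar, and cross-hybridisation between them was not tested. Jchain and Ighg3 were named after their values were seen.

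Of 31 tested DNA repair genes 18 had lower means (52.4% of all genes) and 13 higher, with a median of -0.07, or -0.10 without CCAT2-G replicate 3. Before adjustment 5 had p under 0.05, of which 4 were lower (3.36% of all genes) and 1 was higher (1.95%). The 4 lower ones act in end joining, which seals DNA breaks and is used by B-cell precursors, but they were picked from the list by their p and end joining had no list of its own. The 1 higher was Trp53bp1, a scaffold of the response to DNA breaks, which differed by 0.38 (SE 0.15), with 5 of 6 probesets higher and no overlap between the groups (0.145% of all genes). Polm, a polymerase that fills the ends, was 6.02, 5.38, 5.41 and 5.37 in CCAT2-G replicates 1 to 4, against 4.95 to 5.20 (median 5.12) in CCAT2-GT mice, a difference of -0.47 (SE 0.14). The groups did not overlap (0.552% of all genes were lower without overlap), with CCAT2-G replicate 1 far above the other mice. Xrcc6, the Ku70 subunit that binds broken ends, was 7.71, 7.98, 6.84 and 7.85 in CCAT2-G replicates 1 to 4, and from 6.73 to 7.17 around a median of 6.97 in the 6 CCAT2-GT mice, a difference of -0.62 (SE 0.18). Lig4, the ligase that seals them, was 5.24, 5.27, 4.41 and 5.62 in CCAT2-G replicates 1 to 4 and 3.74 to 4.92 with a median of 4.39 in the CCAT2-GT mice, a difference of -0.74 (SE 0.23). For both, 3 CCAT2-G mice lay above all CCAT2-GT mice and CCAT2-G replicate 3 lay inside their range. Xrcc4, the partner of the ligase, was 6.33, 6.07, 6.03 and 6.37 in CCAT2-G replicates 1 to 4, against 5.59 to 6.04 (median 5.89) in CCAT2-GT mice, a difference of -0.35 (SE 0.12), with CCAT2-G replicate 3 just below the highest CCAT2-GT mouse.

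Xrcc5 and Prkdc, which act with these proteins, lay near 0. Xrcc5, the Ku80 partner of Ku70, differed by 0.06 (SE 0.19), turning sign in 7 of 33 alternatives, and Prkdc, the kinase that Ku recruits, by -0.04 (SE 0.12), turning sign in 1 of them. Xrcc5 was measured by 1 probeset, at means of 4.47 in CCAT2-G and 4.53 in CCAT2-GT mice. Trp53bp1, Xrcc5 and Prkdc were named after their values were seen. The differences of Polm, Xrcc6, Lig4 and Xrcc4 kept their direction in all 33 alternatives, between -0.53 and -0.30, -0.94 and -0.45, -1.04 and -0.56, and -0.47 and -0.26. For CCAT2-GT minus CCAT2-T, Polm differed by -0.36, Xrcc6 by -0.29, Lig4 by -0.68 and Xrcc4 by 0.03. B-cell genes were lower in the same mice, and their part in the repair values was not tested.

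Monocyte and macrophage genes had higher means in CCAT2-GT marrow. Of 28 tested genes 25 were higher (47.6% of all genes), with a median of 0.33, and 4 had p under 0.05, where 1.95% of all genes were higher with such a p. The mean level of the list was 7.91, 8.15, 8.71 and 8.66 in CCAT2-G replicates 1 to 4, and from 8.51 to 8.77 around a median of 8.65 in the 6 CCAT2-GT mice. The 6 CCAT2-GT mice lay within a narrow span, and CCAT2-G replicates 3 and 4 lay among them while replicates 1 and 2 lay below. Csf1r, the receptor for the macrophage growth factor, was 9.18, 9.29, 10.12 and 10.00 in CCAT2-G replicates 1 to 4, and from 9.96 to 10.70 around a median of 10.35 in the 6 CCAT2-GT mice, a difference of 0.69 (SE 0.22), with all 3 probesets higher. Clec4a3, a lectin receptor, was 6.38, 6.43, 8.15 and 7.21 in CCAT2-G replicates 1 to 4 and 7.42 to 8.55 with a median of 7.96 in the CCAT2-GT mice, a difference of 0.90 (SE 0.33). CCAT2-G replicate 3 was as high as the CCAT2-GT mice for Clec4a3, and replicates 1 and 2 were below all of them for both genes. Sirpa, an inhibitory receptor of phagocytes, differed by 0.53 (SE 0.21), and Mpeg1, a pore-forming protein of macrophages, by 0.50 (SE 0.20).

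The size of the monocyte difference depended on the mice included. Without CCAT2-G replicate 1 the median was 0.07 with 17 of 28 genes higher, and without replicate 2 it was 0.17. With all mice 25 of 28 were higher, where 47.6% of all genes were. Leaving out CCAT2-G replicate 3 gave 0.38 with 7 of 28 at p under 0.05 (6.47% of all genes higher at that p), and without replicate 4 it was 0.39. Leaving out the 4 arrays of high Xist gave 0.22 with 18 of 28 higher, and the sex score as a covariate gave 0.16 with 15 of 28 higher. CCAT2-GT minus CCAT2-T had a median of 0.38 and CCAT2-GT minus WT of 0.31.

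Primary granule genes of neutrophil precursors were higher in 8 of 9 cases (47.6% of all genes), with a median of 0.34 and 2 with p under 0.05 (1.95% of all genes higher). Mpo, the peroxidase of the granule, was 11.15, 11.33, 12.32 and 11.97 in CCAT2-G replicates 1 to 4, against 11.66 to 12.95 (median 12.35) in CCAT2-GT mice, a difference of 0.65 (SE 0.24). CCAT2-G replicates 3 and 4 overlapped the CCAT2-GT mice, of which replicate 3 was the lowest. Nkg7, a granule membrane protein that cytotoxic lymphocytes share, was 8.04, 8.03, 9.00 and 8.52 in CCAT2-G replicates 1 to 4, and from 8.65 to 9.47 around a median of 8.88 in the 6 CCAT2-GT mice, a difference of 0.56 (SE 0.20). Here only CCAT2-G replicate 3 reached the CCAT2-GT range. Prtn3, a granule protease, differed by 0.54 (SE 0.33), Gfi1, a repressor that directs granulocyte fate, by 0.65 (SE 0.40), and Elane, neutrophil elastase, by 0.12 (SE 0.35), a value that turned sign in 6 of 33 alternatives. Without CCAT2-G replicate 1 the median of the list was 0.09, and without CCAT2-G replicate 3 it was 0.62.

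Genes of later neutrophil stages had smaller medians. The mature neutrophil list had 17 of 22 genes higher (47.6% of all genes), with a median of 0.21. It holds Ptgs2 and Cxcl2, whose CCAT2-G means of 2.49 and 3.07 lie below the filter at 3.30. Both were thus tested only through arrays where they are higher. Cxcl2, named after its values were seen, differed by 2.65 (SE 1.62). Levels of the list were 9.61 and 9.11 in CCAT2-GT replicates 1 and 5, which also had the highest Ptgs2, and 8.15 to 8.64 in the other CCAT2-GT mice. Fcgr4, an activating IgG receptor, was 7.47, 7.68, 8.31 and 7.64 in CCAT2-G replicates 1 to 4 and 7.83 to 8.81 with a median of 8.24 in the CCAT2-GT mice, a difference of 0.53 (SE 0.21), and Ccl6, a chemokine, was 9.47, 9.38, 10.53 and 8.91 in CCAT2-G replicates 1 to 4, against 9.68 to 10.87 (median 10.24) in CCAT2-GT mice, a difference of 0.72 (SE 0.31). In both, CCAT2-G replicate 3 overlapped the CCAT2-GT mice and the other 3 CCAT2-G mice lay below. Fcgr3 differed by 0.46 (SE 0.23) and Csf3r, the receptor for the granulocyte growth factor, by 0.69 (SE 0.36). The secondary and tertiary granule list had 17 of 20 higher (47.6% of all genes) with a median of 0.12, and Ltf, lactoferrin, differed by 0.28 (SE 0.20). S100a8 differed by less than its SE of 0.06 and turned sign in 14 of 33 alternatives. Without CCAT2-G replicate 3 the mature neutrophil median was 0.43 with 22 of 22 genes higher and 5 at p under 0.05 (6.47% of all genes), and that of the secondary and tertiary granules was 0.35. Without CCAT2-G replicate 4 the 2 medians were 0.05 and 0.03, and without CCAT2-GT replicate 1 they were both 0.07.

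**Figure D3:**
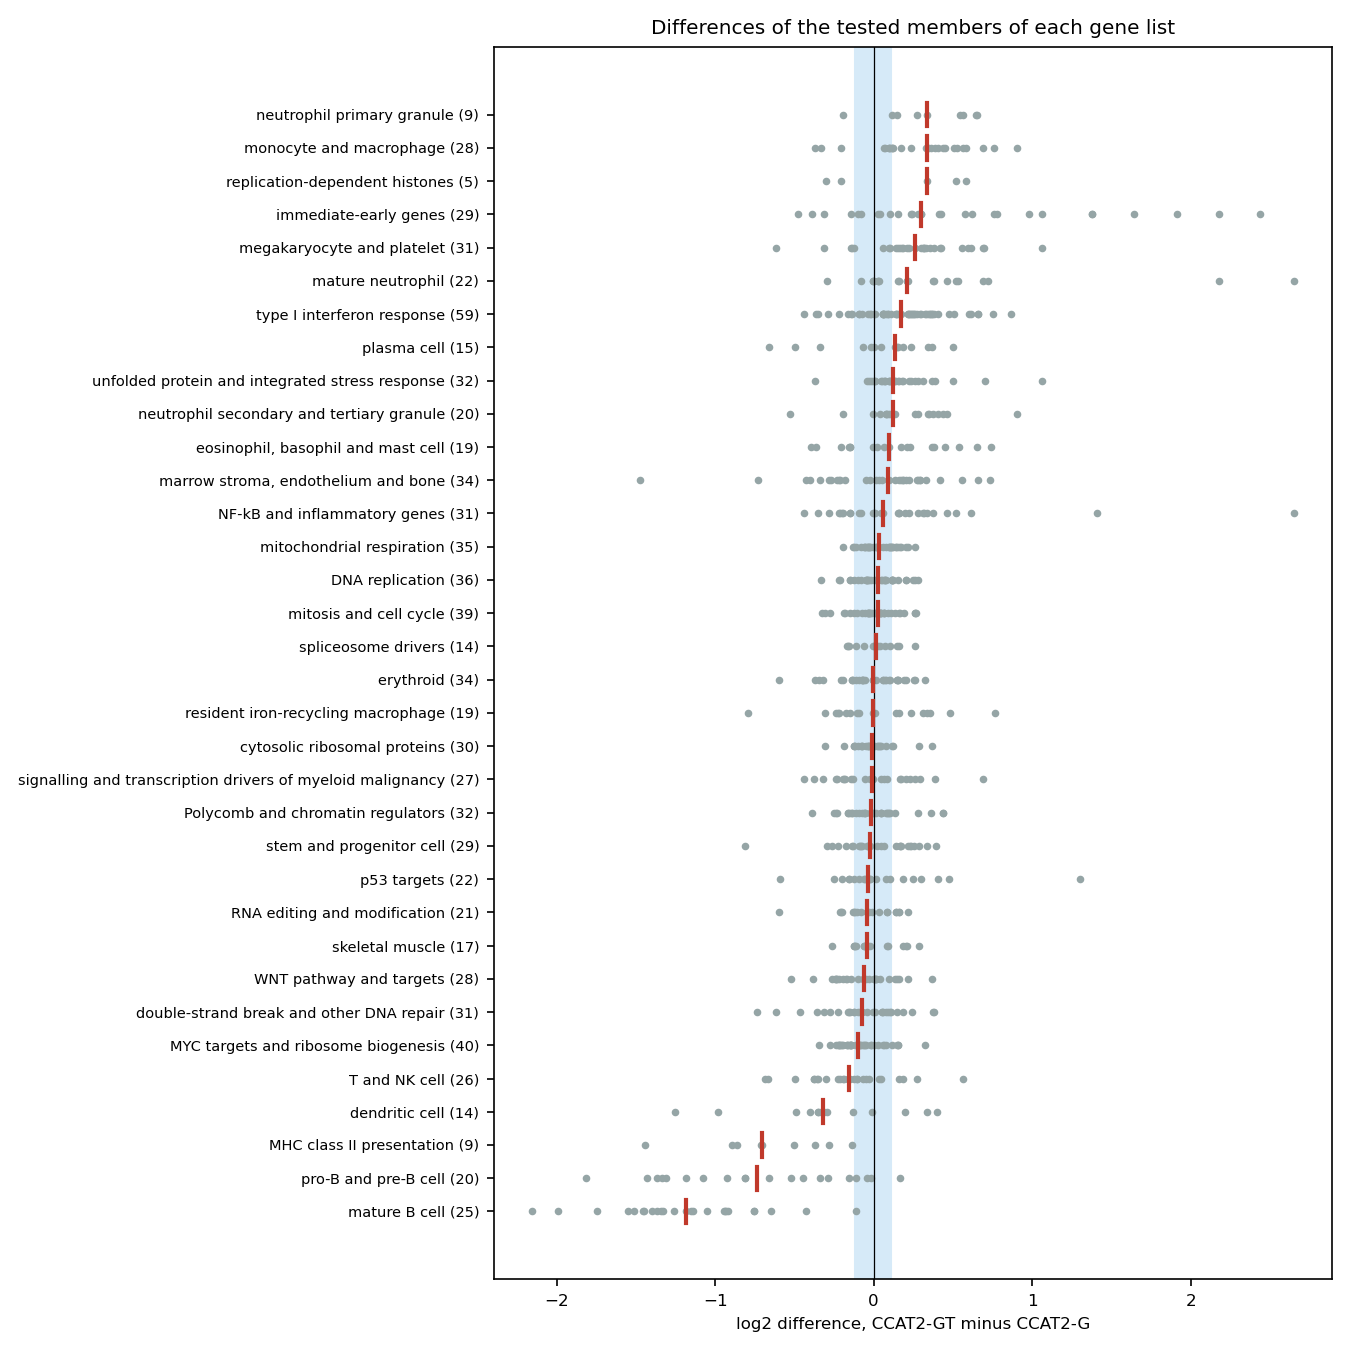
log2 difference, CCAT2-GT minus CCAT2-G, of every tested member of 34 gene lists, with the number of members after each name. Each grey point is a gene, red bars are list medians and the blue band spans the quartiles of all 14505 genes. The mature B-cell, pro-B and pre-B and MHC class II lists lie to the left, with medians of -1.19, -0.73 and -0.70.

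Immediate-early genes, which cells switch on within minutes of a stimulus, separated mice inside the CCAT2-GT group. Of 29 tested genes 23 were higher (47.6% of all genes), with a median of 0.30, and none had p under 0.05. Ptgs2, an inducible prostaglandin enzyme, was 8.18, 5.42 and 7.88 in CCAT2-GT replicates 1, 3 and 5, 2.15 to 2.18 in the other CCAT2-GT mice, and 2.41 to 2.57 in the CCAT2-G mice, a difference of 2.18 (SE 1.44) that turned sign in 1 of 32 alternatives. The same 3 mice were highest for Fos, a transcription factor subunit, at 12.83, 10.49 and 12.47, against 6.75 to 8.07 in the other CCAT2-GT mice and 6.03 to 8.64 in the CCAT2-G mice. High Ptgs2 was also found in CCAT2-T replicates 3 and 4 and WT replicate 3, at 8.57, 5.94 and 7.83. The CCAT2-G mean of Ptgs2, 2.49, lies below the filter at 3.30, so Ptgs2 was tested only through arrays where it is higher. Atf3 differed by 1.06 (SE 0.61), Dusp1 by 1.37 (SE 0.86) and Nr4a2 by -0.39 (SE 0.26), the last with 3 of 6 probesets lower. Without the arrays of Ptgs2 above 5, a choice made after seeing the data, the list median was -0.21 and that of mature B-cell genes was -1.75. The list median was 0.49 without CCAT2-G replicate 3. Fos was named after its values were seen.

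Megakaryocyte and platelet genes had a median of 0.26 and were high in 2 mice. Of 31 genes 26 were higher (47.6% of all genes) and 1 had p under 0.05 (1.95% of all genes higher). The mean level of the list was 9.57 and 9.24 in CCAT2-GT replicates 4 and 6, the stroma-rich arrays, and 6.36 to 7.77 in the other 4, against 7.06 to 8.00 in the CCAT2-G mice. Thbs1, a platelet adhesion protein, was 7.97, 8.45, 7.31 and 8.61 in CCAT2-G replicates 1 to 4, and from 7.30 to 11.11 around a median of 8.76 in the 6 CCAT2-GT mice, a difference of 1.06 (SE 0.58). Its highest CCAT2-GT mice were replicates 4 and 6, at 11.11 and 10.70. F5, a clotting factor stored in platelets, differed by 0.69 (SE 0.31), Nbeal2, needed for platelet granules, by 0.61 (SE 0.33), and Tbxas1, which makes thromboxane, by 0.56 (SE 0.33). Pf4, a platelet chemokine, differed by -0.14 (SE 0.70), turning sign in 9 of 33 alternatives. The list median ran from -0.65 to 1.10 over the 33 alternatives. It was below 0 in 7 of them, among them -0.15 without CCAT2-GT replicate 4, -0.03 without replicate 6, -0.23 with array weights and -0.65 without the stroma-rich arrays, where 11 of 31 genes were lower at p under 0.05 (2.56% of all genes). It was 0.15 without CCAT2-G replicate 3, 0.90 with the sex score as a covariate, 0.95 without the Xist-high arrays and 1.10 with 30 of 31 higher without the arrays of Ptgs2 above 5. Leaving out the Xist-high arrays keeps CCAT2-GT replicates 1, 4 and 6, and leaving out those of Ptgs2 above 5 keeps replicates 2, 4 and 6. Both exclusions thus keep replicates 4 and 6, the highest for this list, and do not separate their weight from sex or Ptgs2.

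Interferon response genes had 44 of 59 higher means (47.6% of all genes), with a median of 0.17, and 4 with p under 0.05 (1.95% of all genes higher). Ifi204, a DNA sensor, was 4.17, 4.59, 5.59 and 5.13 in CCAT2-G replicates 1 to 4 and 5.18 to 6.03 with a median of 5.66 in the CCAT2-GT mice, a difference of 0.75 (SE 0.27). Ifit3, an antiviral effector, was 4.43, 5.15, 6.11 and 5.31 in CCAT2-G replicates 1 to 4, against 4.94 to 7.55 (median 6.07) in CCAT2-GT mice, a difference of 0.87 (SE 0.40). CCAT2-G replicate 3 lay inside the CCAT2-GT range for both. Phf11d differed by 0.48 (SE 0.20), and B2m, the light chain of MHC class I, by 0.24 (SE 0.11). With CCAT2-G replicate 3 left out the median was 0.19 and 11 genes of the list were higher at p under 0.05 (6.47% of all genes). Without CCAT2-G replicate 1, 0 genes of the list had p under 0.05 (1.21% of all genes were higher at that p), and with the sex score as a covariate the median was 0.05 and none was higher at that p (2.6% of all genes).

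The list of the unfolded protein and integrated stress responses had 27 of 32 higher (47.6% of all genes), with a median of 0.12 and 4 with p under 0.05 (1.95% of all genes higher). Edem1, which removes misfolded glycoproteins, was 8.06, 8.24, 9.10 and 8.43 in CCAT2-G replicates 1 to 4, and from 8.58 to 9.53 around a median of 8.91 in the 6 CCAT2-GT mice, a difference of 0.50 (SE 0.20). Dnajc3, a chaperone of the same compartment, differed by 0.39 (SE 0.17), with all 5 probesets higher, and Xbp1, the transcription factor of the response, by 0.37 (SE 0.17). Chac1, a glutathione-degrading enzyme of the stress response, was 5.11, 4.87, 5.61 and 5.04 in CCAT2-G replicates 1 to 4 and 5.17 to 7.61 with a median of 5.54 in the CCAT2-GT mice, a difference of 0.70 (SE 0.33). CCAT2-GT replicate 2, at 7.61, lay far above the other mice. Without that mouse the list median was 0.07 and 1 gene had p under 0.05 (2.15% of all genes higher), and without CCAT2-G replicate 1 it was 0.04 and none did. Leaving out CCAT2-G replicate 3 gave 0.19, and 5 were higher at that p (6.47% of all genes).

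Lists of myeloid malignancy and growth had medians from -0.10 to 0.03. The median was -0.02 for 32 Polycomb and chromatin regulators, -0.01 for 27 signalling and transcription drivers, 0.01 for 14 spliceosome drivers, 0.02 for 39 mitosis genes, 0.03 for 36 DNA replication genes and -0.10 for 40 MYC targets and ribosome biogenesis genes. Of these 40, 30 had lower means, where 52.4% of all genes were lower, and their median turned sign in 2 of 33 alternatives. Ezh2, the Polycomb methyltransferase, was 9.07, 9.31, 8.83 and 9.08 in CCAT2-G replicates 1 to 4, against 8.69 to 9.17 (median 8.96) in CCAT2-GT mice, a difference of -0.11 (SE 0.13). Myc, the growth transcription factor, was 7.85, 8.40, 7.77 and 8.68 in CCAT2-G replicates 1 to 4, and from 7.73 to 8.20 around a median of 8.08 in the 6 CCAT2-GT mice, a difference of -0.14 (SE 0.21), and Adar, the RNA editing enzyme, was 6.72, 6.72, 6.83 and 6.74 in CCAT2-G replicates 1 to 4 and 6.49 to 7.12 with a median of 6.94 in the CCAT2-GT mice, a difference of 0.14 (SE 0.14). In these 3 genes the groups overlapped throughout. Among 21 RNA editing and modification genes the median was -0.04. Kit, the stem-cell factor receptor, differed by 0.23 (SE 0.26), and Cd34, a progenitor surface protein, by -0.04 (SE 0.39). Erythroid genes had a median of -0.0036 over 34 genes, and Klf1 differed by -0.13 (SE 0.25) and Gata1, the master erythroid and megakaryocyte factor, by 0.33 (SE 0.20). Cd34, Klf1 and Myc turned sign in some alternatives.

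Of the remaining lists, that of eosinophils, basophils and mast cells had a median of 0.10. The medians of the others were 0.09 for stroma, endothelium and bone, 0.06 for inflammatory genes, 0.03 for mitochondrial respiration, -0.0047 for iron-recycling macrophages, -0.01 for cytosolic ribosomal proteins, -0.02 for stem and progenitor cells, -0.03 for p53 targets, -0.04 for skeletal muscle and -0.06 for the WNT pathway. Of the replication-dependent histones only 5 were tested, with a median of 0.33 that turned sign in 3 of 33 alternatives and was 0.48 without CCAT2-G replicate 3. H1f2, a linker histone, differed by 0.58 (SE 0.40), H1f4 by 0.52 (SE 0.32), H2bc21 by -0.30 (SE 0.17) and H2ax by -0.20 (SE 0.17). Epx and Prg2, eosinophil granule proteins, differed by 0.65 (SE 1.10) and 0.74 (SE 1.10), turning sign in 3 of 33 alternatives, and were named after their values were seen. They were highest in CCAT2-GT replicates 4 and 5, at 10.05 and 9.64 for Epx and 11.87 and 12.24 for Prg2, and in CCAT2-G replicate 3, at 8.89 and 12.05.

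The genes of smallest p did not come from 1 list. Crabp2, which carries retinoic acid to its nuclear receptor, had the smallest p among genes lower in CCAT2-GT mice. It was 3.91, 3.68, 3.88 and 3.69 in CCAT2-G replicates 1 to 4, against 3.01 to 3.54 (median 3.32) in CCAT2-GT mice, a difference of -0.51 (SE 0.12), and its groups did not overlap. The CCAT2-GT mean of 3.28 lies below the filter at 3.30, so Crabp2 was tested only through groups where it is higher. Gga2, an adaptor for sorting from the Golgi, was 7.98, 7.97, 7.51 and 7.88 in CCAT2-G replicates 1 to 4, and from 7.24 to 7.45 around a median of 7.35 in the 6 CCAT2-GT mice, a difference of -0.49 (SE 0.13). Sergef, a secretion regulator, was 5.60, 5.61, 5.50 and 5.65 in CCAT2-G replicates 1 to 4 and 5.03 to 5.33 with a median of 5.24 in the CCAT2-GT mice, a difference of -0.39 (SE 0.11). In all 3 genes every CCAT2-GT mouse was below every CCAT2-G mouse, as in 80 genes (0.552%) of those tested. Pde6c, a photoreceptor phosphodiesterase, was also separated, with a difference of -0.46 (SE 0.13) at levels between 3.00 and 3.75. The CCAT2-GT mean of Pde6c, 3.20, lies below the filter at 3.30, so it too was tested only through groups where it is higher. Rsl1, a zinc finger repressor, was separated too, with a difference of -0.52 (SE 0.14).

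The others among the 10 of smallest p that were lower overlapped. Dnajc7, a co-chaperone, was 8.50, 8.41, 7.53 and 8.93 in CCAT2-G replicates 1 to 4, against 6.85 to 7.90 (median 7.45) in CCAT2-GT mice, a difference of -0.96 (SE 0.25). Ppp1r11, an inhibitor of a protein phosphatase, was 6.91, 7.37, 6.59 and 7.47 in CCAT2-G replicates 1 to 4, and from 6.08 to 6.93 around a median of 6.21 in the 6 CCAT2-GT mice, a difference of -0.76 (SE 0.21). In both, 1 or more CCAT2-GT mice were above CCAT2-G replicate 3. Isoc2b differed by -0.47 (SE 0.12), Iqcb1, a protein of the cilium, by -0.54 (SE 0.15), and Dmxl1, a regulator of the proton pump, by -0.57 (SE 0.16).

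Among the 10 of smallest p that were higher, 2 belong to phagocytes. Slamf8, a surface receptor of macrophages, was 3.74, 3.76, 4.14 and 4.18 in CCAT2-G replicates 1 to 4 and 4.02 to 5.00 with a median of 4.81 in the CCAT2-GT mice, a difference of 0.73 (SE 0.20), and Csf1r was the other. Only CCAT2-GT replicate 2 lay inside the CCAT2-G range of Slamf8. Abcg1, a cholesterol exporter, was 6.87, 6.91, 6.72 and 6.96 in CCAT2-G replicates 1 to 4, against 6.91 to 7.54 (median 7.28) in CCAT2-GT mice, a difference of 0.41 (SE 0.12), with both probesets higher. Abca9, a transporter of the same superfamily, differed by 0.78 (SE 0.24), with 1 of 2 probesets higher. Wdsub1 was 4.60, 4.95, 4.94 and 4.91 in CCAT2-G replicates 1 to 4, and from 5.09 to 5.52 around a median of 5.17 in the 6 CCAT2-GT mice, a difference of 0.38 (SE 0.12). Its groups did not overlap, where 0.145% of all genes were higher without overlap. Zkscan5 differed by 0.44 (SE 0.12), Tlcd2 by 0.48 (SE 0.13), Fam234a by 0.54 (SE 0.16), Gdf3, a secreted factor of the TGF-beta family, by 0.49 (SE 0.15) and Vsig10 by 0.45 (SE 0.14). The CCAT2-G mean of Vsig10, 3.19, lies below the filter at 3.30, so Vsig10 was tested only through groups where it is higher.

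The 2 genes called when CCAT2-G replicate 3 was left out were Abcd2 and Pla2g7, both higher at an adjusted p of 0.0108 in limma. Abcd2, a peroxisomal transporter, was 4.93, 4.99, 7.20 and 4.89 in CCAT2-G replicates 1 to 4 and 6.01 to 6.57 with a median of 6.37 in the CCAT2-GT mice, a difference of 0.81 (SE 0.34) with all mice and of 1.38 without that replicate. CCAT2-G replicate 3 was above every CCAT2-GT mouse and the other 3 were below every one. Pla2g7, a secreted phospholipase of macrophages, was 7.50, 7.59, 9.46 and 7.13 in CCAT2-G replicates 1 to 4, against 8.43 to 9.23 (median 8.73) in CCAT2-GT mice, a difference of 0.83 (SE 0.32) with all mice and of 1.35 without that replicate, with the same order of mice. Both were named after their values were seen.

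**Figure D4:**
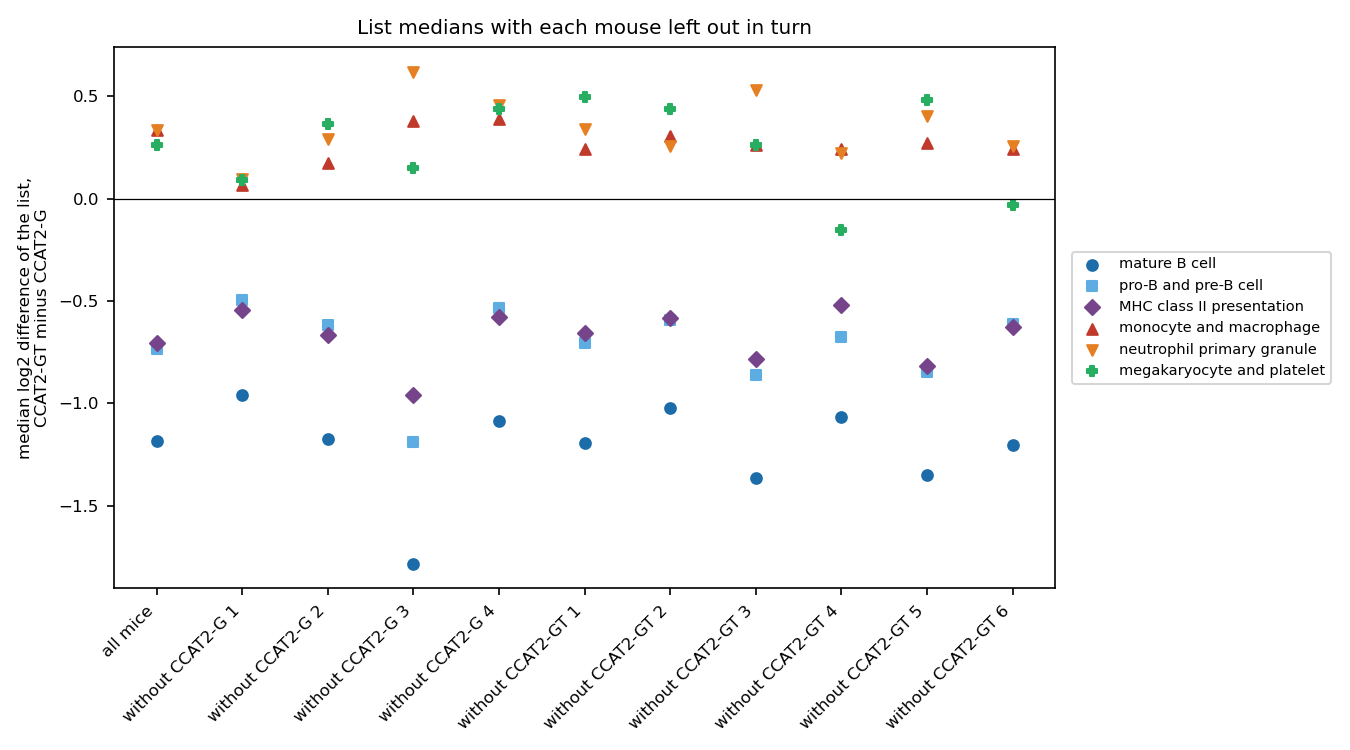
Median log2 difference of 6 gene lists with all mice and with each of the 10 mice left out in turn. Each symbol is a list. The mature B-cell median runs from -1.78 to -0.96 and stays lowest at every setting, while the megakaryocyte median crosses 0 without CCAT2-GT replicate 4 or 6.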

How the data were processed

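The authors deposited log2 expression values for 45101 probesets on 18 Affymetrix arrays, normalized with RMA per the submitters' processing notes; its version is not given in the sources used here. Probesets with a single gene symbol in the platform annotation (34958) were kept, each of the 18194 genes was represented by its brightest probeset, and genes below the 30th percentile of probeset means (3.30) were left out, leaving 14505. Correlations between the 10 arrays were 0.965 to 0.993 and no 2 arrays were identical. The precision is set by the number of arrays, which have no read depth.

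Groups came from the titles. A linear model of the 4 groups was fitted to all 18 arrays (limma 3.58.1, R 4.3.3, trended eBayes), with Benjamini-Hochberg adjustment across the 14505 genes and a threshold of 0.05. Labels do not name a litter or cage, so p-values measure the spread between these animals.

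The comparison and the 35 gene lists (1018 entries, 916 matched, 886 tested) were chosen with earlier results of these data known. Named genes were the 10 of smallest p in each direction (without predicted genes, antibody and T-cell receptor segments and sex-linked genes), up to 4 members of smallest p for lists described, and fixed markers; genes outside this rule are said to be named after their values were seen. List levels are means over tested members. The same-side counts and medians of lists have no test. Alternatives covered scaling, filters, probeset choice, the eBayes variant, array weights, the arrays fitted, a test against 1.5-fold, a replicate block, the letter of the identifier, sex, stroma and interquartile range as covariates or exclusions, and leaving out each mouse; 3 more were chosen after seeing the data.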

Additional observations from a re-analysis of the deposited data

Results flagged for a closer look

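Within each group, the highest and lowest mouse was compared with the rest for every named gene and list, 280 sets in all. A mouse stood apart by Dixon's criterion in 25 sets, where chance gives about 1 in 20 sets. Many of these sets share their genes or their mouse.

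CCAT2-G replicate 3 accounted for most. It was the lowest CCAT2-G mouse for genes of the B lineage, at 5.07 for Cd79a (next 8.55), 7.16 for Cd79b (next 9.42), 4.19 for Ebf1, 4.22 for Vpreb1, 4.84 for Igll1, 2.57 for Rag1 (next 8.25), 3.48 for Rag2 and 5.88 for Dntt. The pro-B and pre-B list as a whole had a mean level of 6.37 in that mouse, with the next at 8.23. It was also lowest for Cd74 at 9.22, Irf4 at 5.80, Nr4a2 at 5.21 and Dmxl1 at 6.96. It was highest for Fcgr3 at 10.56, S100a8 at 13.84, Abcd2 at 7.20 and the list of eosinophils, basophils and mast cells at 6.68. The cause was not tested.

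CCAT2-G replicate 1 was lowest for Wdsub1 at 4.60 and Phf11d at 5.50 and highest for Polm at 6.02. CCAT2-GT replicate 2 was highest for Chac1 at 7.61, for the unfolded protein and integrated stress response list at 8.73 and for skeletal muscle genes at 4.90. CCAT2-GT replicate 6 was lowest for Ltf at 12.26, and CCAT2-GT replicate 4 was highest for the spliceosome drivers at 9.10.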

How the results depend on the processing

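In 32 of 33 alternatives limma called 0 genes. Leaving out each of the 10 mice in turn gave 0 to 2 genes called higher and 0 called lower, with the 2 called when CCAT2-G replicate 3 was left out. That exclusion also gave 938 genes higher and 1075 lower at an unadjusted p under 0.05, against 283 and 487 with all mice. Array weights gave 1172 and 1479 with 0 genes called. Deviations of same-numbered CCAT2-G and CCAT2-GT mice correlated at 0.21, -0.0022, -0.32 and 0.10, and the main fit did not pair mice by number. These correlations cover only those 2 groups. In WT and CCAT2-T mice, replicates 1 and 2 had narrower arrays and higher mature B-cell levels than replicates 3 and 4. In CCAT2-G mice only the array spread followed that order, and in CCAT2-GT mice neither did. What the numbers stand for was not tested. With the replicate number as a block 0 genes were called in either direction and the smallest adjusted p was 0.874. Of 108 genes followed through the alternatives, 14 turned sign in at least 1 alternative. Settings that alter only the filter, the eBayes variant, the test or the other groups leave each gene's difference unchanged and could not turn it. The list medians of mature B cells, pro-B and pre-B cells, MHC class II, monocytes and primary granules kept their direction in all 33 alternatives. Alternatives chosen after seeing the data kept only CCAT2-G replicates 2 and 4 (mature B-cell median -1.57), used the immediate-early score as a covariate (-1.19) or left out the arrays of Ptgs2 above 5 (-1.75). Each exclusion also removes samples, and no cause of these changes was tested.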
